A study of Mus musculus with 27 samples.

Results

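The genes described here are 9 cathepsins (Ctsa, Ctsb, Ctsc, Ctsd, Ctsh, Ctsk, Ctsl, Ctss and Ctsz) and Cst3, which encodes cystatin C. They were taken by gene name from a gene expression table of 54532 genes, and all 10 were found, each in 1 row. All 10 also passed the filter on low values that left 14932 genes for testing, a mean of at least 0.5 FPKM (fragments mapped to a gene, scaled to its length and to the size of the library). The libraries came from mouse embryonic fibroblasts (MEFs) during their conversion to induced neurons. MEFs were prepared from WT, Per1-/- and Per2-/- embryos at mid-gestation, without head and heart, and the cells of 4 embryos were pooled in a dish. All cultures, WT included, were transduced with doxycycline-inducible neuronal transcription factors and with M2rtTA, the transactivator that doxycycline switches on. RNA was collected on day 0, before the change from medium with serum to serum-free N3 medium with doxycycline, and on days 2 and 4 after it. There were 3 replicates for each genotype and day and 27 libraries in all.

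Cathepsins are proteases of lysosomes, the compartment in which cells break down proteins. They are made as inactive precursors, carried to lysosomes largely by mannose 6-phosphate receptors, and activated there by cleavage. Most are cysteine proteases, while cathepsin D is an aspartic protease and cathepsin A a serine carboxypeptidase. Cystatin C is a secreted inhibitor of the cysteine cathepsins. Macrophages are rich in lysosomes and use cathepsin S to process antigens, and MEF cultures such as these hold some macrophages. The members were therefore grouped by role as macrophage-linked (Ctss, Ctsc and Ctsh), broadly expressed lysosomal enzymes (Ctsb, Ctsd, Ctsl, Ctsz and Ctsa), a protease of bone and connective tissue matrix (Ctsk) and a secreted inhibitor (Cst3).

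The libraries held 15815013 to 24264097 fragments on genes, so that even the lowest member, Ctsh, was counted with 154 to 961 fragments per library. Markers of fibroblasts summed to 3746 to 6486 FPKM per library over 12 genes, and markers of macrophages to 149 to 2408 FPKM over 20 genes. The Per2 transcript was higher in the libraries labelled Per2-/- than in WT, by 2.04-fold on day 0 (adjusted p = 0.00114, limma) and 1.76-fold on day 2 (adjusted p = 0.0191). Per1 was lower in Per1-/- than in WT by 0.50 on the log2 scale on day 0 and was not called (adjusted p = 0.771). Transcript levels therefore did not check either label. The study checked both genotypes by western blot, which was not analysed here. The labels call the replicates biological but do not say whether they came from separate embryos or cultures, so p-values measure the spread between these libraries.

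The 10 genes lie at separate places except for Ctsk (chr3:95499256-95509362) and Ctss (chr3:95526786-95556403), which are neighbours on the plus strand of chromosome 3, 17423 bases apart with 0 annotated genes between them (GRCm38, as in the expression table). Ctsc lies at chr7:88278085-88310888, Ctsd at chr7:142375911-142388038, Ctsb at chr14:63122462-63145923 and Cst3 at chr2:148871722-148875692. Promoter sequence was looked up in RefSeq (GRCm38.p6), whose table matched 8 of the 10 members, without Ctsb and Ctsh. In the 250 bases before the start, 3 motifs were searched on both strands: the E-box CACGTG, its extended form, the CLEAR element, bound by regulators of lysosomal genes such as TFEB, and GAGGAAGT, the core bound by the macrophage factor PU.1. The 2 E-box forms overlap, since the longer one contains the shorter. The upstream sequences of 2 macrophage-linked members are shown because their levels separated below, with motif matches in capitals.
Ctss, chr3:95526536-95526785, plus strand: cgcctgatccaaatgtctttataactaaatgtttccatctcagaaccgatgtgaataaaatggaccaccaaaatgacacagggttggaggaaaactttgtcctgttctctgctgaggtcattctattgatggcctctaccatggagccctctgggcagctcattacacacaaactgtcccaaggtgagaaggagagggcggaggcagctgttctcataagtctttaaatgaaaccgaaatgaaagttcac
Ctsc, chr7:88277835-88278084, plus strand: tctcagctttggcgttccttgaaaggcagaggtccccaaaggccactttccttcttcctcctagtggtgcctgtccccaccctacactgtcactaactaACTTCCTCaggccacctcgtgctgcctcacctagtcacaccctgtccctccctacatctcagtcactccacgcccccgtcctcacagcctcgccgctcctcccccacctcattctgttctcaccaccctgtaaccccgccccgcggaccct
The PU.1 core was found on the minus strand of the Ctsc window, starting 151 bases before the start, and in none of the other 7 windows. Of all 27025 promoter windows, 2.44% held it. Ctsd, a broadly expressed lysosomal enzyme, had 2 E-boxes, starting 245 and 98 bases before the RefSeq start, shown here with their flanks. That start lies inside the gene as the expression table annotates it, so the second E-box is within the annotated gene and the first just upstream of it.
Ctsd, chr7:142388048-142388077, minus strand: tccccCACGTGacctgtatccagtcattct
Ctsd, chr7:142387908-142387937, minus strand: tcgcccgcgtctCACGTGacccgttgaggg
Ctsl held 1 E-box, starting 236 bases before a RefSeq start that also lies inside the annotated gene. The E-box was present in 6.05% of all windows and the CLEAR element in 0.259%, with 0 of the 8 members holding the latter. A match describes these letters only and does not show binding.

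Ctsd was the most abundant member, and Ctsh the least. On the FPKM scale, which corrects for gene length, the means over 27 libraries were 282 for Ctsd, 212 for Cst3, 197 for Ctsb, 134 for Ctsz, 67.7 for Ctsl, 60.1 for Ctsa, 41.1 for Ctss, 36.1 for Ctsk, 10.2 for Ctsc and 4.61 for Ctsh. Ctsd ranked 102nd and Cst3 151st of the 14932 tested genes, whose median was 5.59 FPKM. The ranges of neighbours in this order overlapped, for example 144 to 379 FPKM for Cst3 and 113 to 368 FPKM for Ctsb. Ctss varied most among the members, with levels from 10.98 to 110 FPKM. Its SD between replicates was 0.61 on the log2 scale, higher than that of 90.1% of the tested genes, whose median was 0.20. Ctsh followed with an SD of 0.41, Ctsk with 0.34 and Ctsc with 0.30, while Ctsl (0.16), Ctsa (0.17) and Ctsz (0.19) varied less than the median gene.

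**Figure D1:**
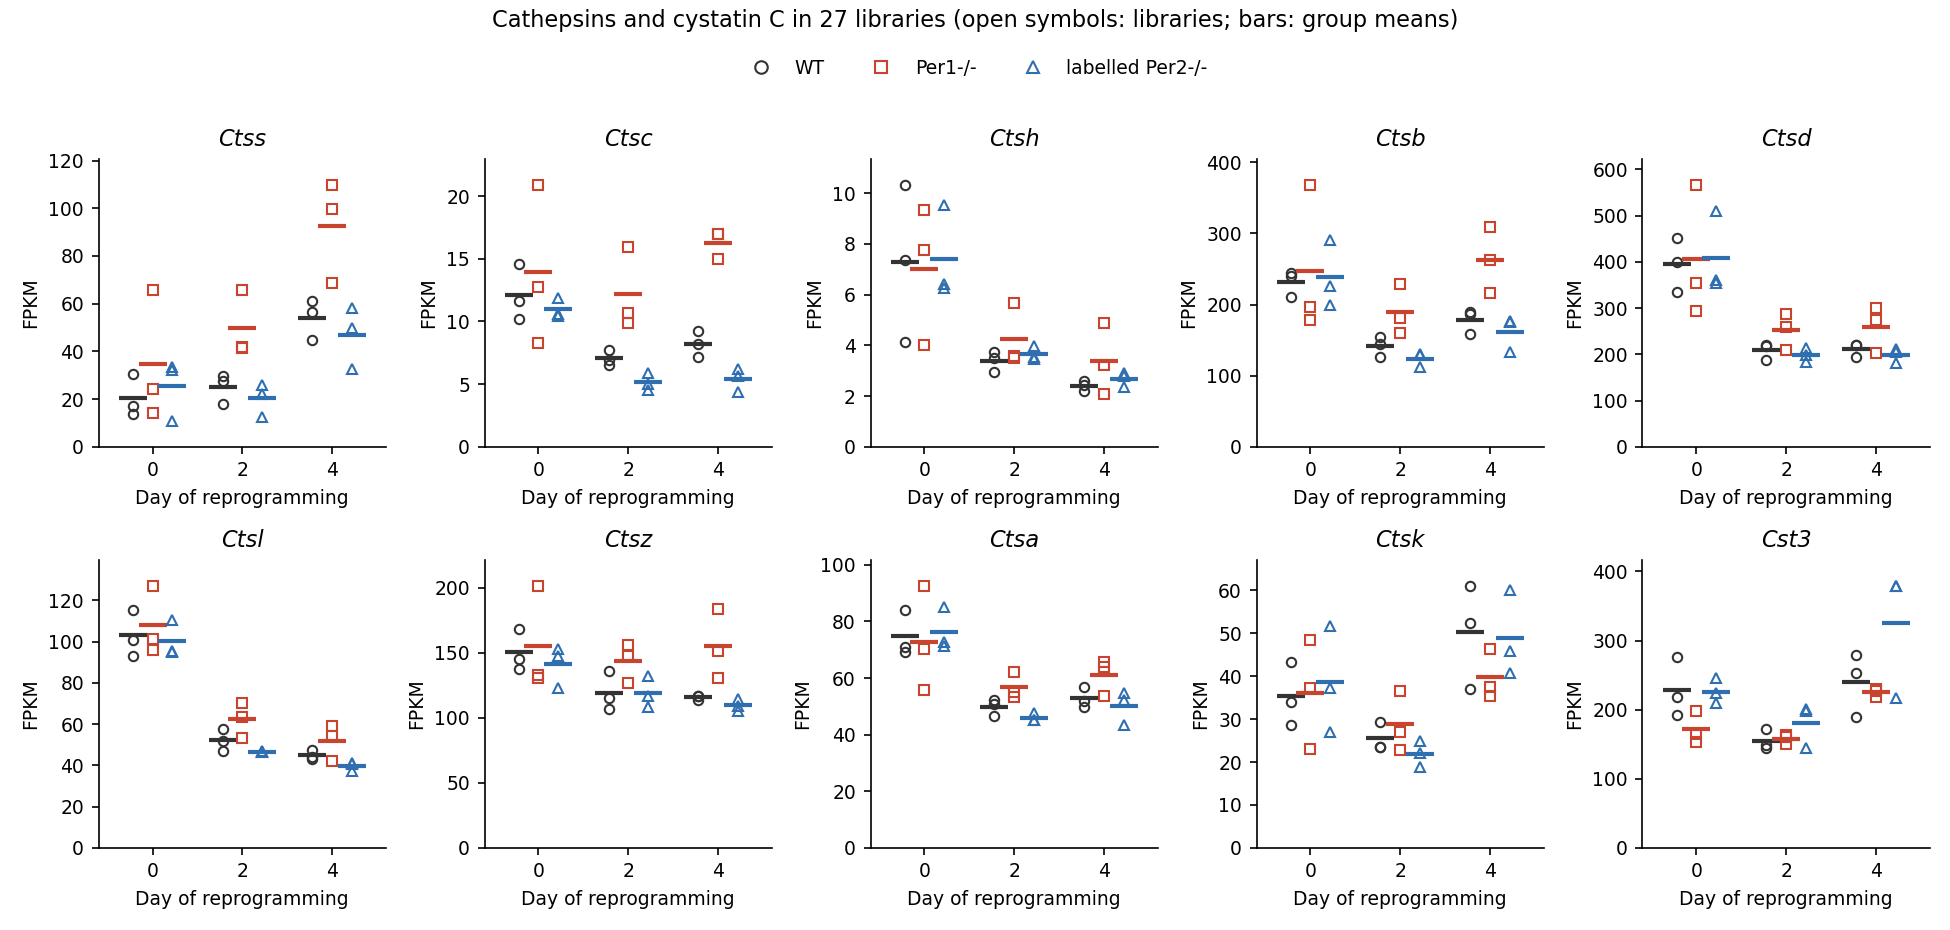
FPKM of each member (vertical axes, from 0) against the day of reprogramming, with 1 open symbol per library, 3 per genotype and day, and a bar at each group mean. Ctsd, Ctsl and Ctsa were highest on day 0, Ctss was highest on day 4, and the 3 Per1-/- libraries lay above the 6 others for Ctsc and Ctss on days 2 and 4.

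The first question was how the members changed as reprogramming began, from day 0 to day 2 within a genotype. Serum was withdrawn and doxycycline added together between these days. No library had either change alone, so their effects cannot be told apart. Most fell relative to other genes. A gene was called when limma on log2(FPKM + 0.1) gave a Benjamini-Hochberg adjusted p of at most 0.05 over all tested genes and the change was at least 0.58 on the log2 scale. In WT, 6 of the 10 members were called lower (Ctsa, Ctsb, Ctsc, Ctsd, Ctsh and Ctsl), beside 19.7% of all tested genes. In the libraries labelled Per2-/-, 7 were called lower (the same 6 and Ctsk), beside 16.8%. In Per1-/-, 2 were called lower (Ctsd and Ctsl), beside 18.8%. No member was called higher in any genotype, beside 20.8% of all tested genes in WT, 20.8% in Per1-/- and 18.7% in the libraries labelled Per2-/-. The median change of the 10 members was -0.65 in WT, -0.31 in Per1-/- and -0.85 in the libraries labelled Per2-/-, beside medians over all tested genes of -0.01 in each genotype.

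These values depend on the scale. The deposited FPKM carry a size factor that sets the median gene to no change. When FPKM were rescaled to a common sum per library, the median of all tested genes rose by 0.41 in WT, 0.38 in Per1-/- and 0.32 in the libraries labelled Per2-/-, and the calls for lower members went from 6, 2 and 7 to 0, 0 and 4. The called changes of the cathepsins below are therefore changes relative to the median gene. On the common-sum scale the calls of Ctsb, Ctsc, Ctsd and Ctsl remained in the libraries labelled Per2-/-. There Ctss was called higher in Per1-/- (1.17, adjusted p = 0.0372, limma), beside 5373 of all tested genes. On that scale 6 members with negative values and no call in Per1-/- on the deposited scale turned positive, Ctsa, Ctsb, Ctsc, Ctsk, Cst3 and Ctsz, at 0.06 to 0.31.

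Ctsl, a cysteine protease of most cell types, fell most evenly. Its FPKM in the 3 WT libraries were 101, 93.3 and 115 on day 0 and 51.8, 47.1 and 57.8 on day 2. In Per1-/- they were 95.8, 101 and 127 on day 0 and 63.4, 53.3 and 70.1 on day 2. In the libraries labelled Per2-/- they were 95.4, 95 and 110 FPKM before doxycycline and 46.3, 47.1 and 46.3 FPKM on day 2. The day 0 and day 2 libraries did not overlap in any genotype. How many of all tested genes separate so was not counted, here or for the members below. At an unadjusted p under 0.05 (limma) there were 9541 genes in WT, 9546 in Per1-/- and 8953 in the libraries labelled Per2-/-, of 14932. The log2 changes were -0.98 ± 0.12 (SE, adjusted p = 1.05e-06, limma) in WT, -0.79 ± 0.12 (adjusted p = 1.57e-05) in Per1-/- and -1.10 ± 0.12 (adjusted p = 2.70e-07) in the libraries labelled Per2-/-. None of the fits that left out 1 library of the groups compared lost these 3 calls.

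Ctsd, the aspartic protease, fell from a WT mean of 395 ± 58.5 FPKM (SD, n = 3) on day 0 to 209 ± 17.3 FPKM on day 2. Its 3 WT libraries were at 400, 451 and 334 FPKM on day 0 and at 219, 189 and 218 FPKM on day 2, without overlap. The log2 change was -0.91 ± 0.19 (SE, adjusted p = 0.000392, limma) in WT and -1.02 ± 0.19 (adjusted p = 0.000147) in the libraries labelled Per2-/-. In Per1-/- it was -0.64 ± 0.19 (adjusted p = 0.00775), and this call was lost without Per1-/- day 0 replicate 3, the library with the highest level of 567 FPKM (-0.37, adjusted p = 0.0810). It also fell under the minimum size without Per1-/- day 2 replicate 2 (-0.51).

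Ctsb, a cysteine protease that can also leave the lysosome, fell in WT from 240, 244 and 211 FPKM to 144, 127 and 155 FPKM, without overlap. The log2 change was -0.71 ± 0.21 (SE, adjusted p = 0.00600, limma) in WT and -0.93 ± 0.21 (adjusted p = 0.000733) in the libraries labelled Per2-/-. In Per1-/- it was -0.32 ± 0.21 and not called (adjusted p = 0.190). Ctsa, which protects 2 lysosomal glycosidases, fell by 0.58 in WT and by 0.73 in the libraries labelled Per2-/-, with -0.33 in Per1-/- not called. The WT call of Ctsa lay at the minimum size and was lost without WT day 0 replicate 2 (-0.49) or WT day 2 replicate 2 (-0.53). Ctsz, a carboxypeptidase, was not called in any genotype, with values of -0.33, -0.09 and -0.25 in WT, Per1-/- and the libraries labelled Per2-/-.

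The macrophage-linked members did not move as 1 group. Ctsc, which trims dipeptides from proteins and activates serine proteases of granulocytes and mast cells, fell in WT from 14.6, 10.2 and 11.7 FPKM to 7.72, 6.91 and 6.55 FPKM (-0.76 ± 0.23 SE, adjusted p = 0.00729, limma). It fell by 1.08 in the libraries labelled Per2-/- (adjusted p = 0.000449) and was at -0.13 in Per1-/- without a call (adjusted p = 0.648). Ctsh, an aminopeptidase, fell by 0.99 in WT (adjusted p = 0.0101) and by 0.97 in the libraries labelled Per2-/- (adjusted p = 0.0127). Its WT call was lost without WT day 0 replicate 2 (-0.70, adjusted p = 0.0782) and the other without Per2-/- day 0 replicate 1 (-0.78, adjusted p = 0.0698). In Per1-/- Ctsh was at -0.66 (adjusted p = 0.0764), and it was called without Per1-/- day 0 replicate 2 (-1.02) or Per1-/- day 2 replicate 1 (-0.88). Ctss, the protease that trims the invariant chain of MHC class II, was not called, with 0.34 ± 0.47 (SE) in WT, 0.77 ± 0.47 in Per1-/- and -0.23 ± 0.47 in the libraries labelled Per2-/-. Without Per1-/- day 0 replicate 3, whose 65.9 FPKM stood beside 14.2 and 24.5 FPKM in the other two, Ctss was called higher in Per1-/- (1.38, adjusted p = 0.0117).

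Over the same interval 13 of the 20 macrophage markers were called higher in Per1-/-, 8 in WT and 2 in the libraries labelled Per2-/-, beside 20.8%, 20.8% and 18.7% of all tested genes, and 0 were called lower. The macrophage marker level of each library, the mean of log2(FPKM + 0.1) over the 20 markers, was also used as a covariate. With this covariate 8 members were called lower in WT, 4 in Per1-/- (Ctsb, Ctsc, Ctsd and Ctsl) and 7 in the libraries labelled Per2-/-. Of all tested genes 2944 in WT, 2811 in Per1-/- and 2508 in the libraries labelled Per2-/- were called lower without the covariate. With it these numbers were 3056, 2885 and 2589. Ctss then changed sign in WT, from 0.34 to a called -0.59 (adjusted p = 0.00173). In these bulk libraries fewer cells of a type and less RNA per cell cannot be told apart.

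From day 2 to day 4 none of the broadly expressed members was called, and the 3 highest changes belonged to Ctss, Ctsk and Cst3. In WT 1 member was called higher, Ctsk, beside 1.62% of all tested genes, and 0 lower, beside 1.59%. In the libraries labelled Per2-/- 2 members were called higher, Ctsk and Cst3, beside 2.32%, and 0 lower, beside 1.74%. In Per1-/- 0 members were called, beside 1.38% called higher and 1.06% called lower, with 3 members at an unadjusted p under 0.05 and 0 calls by limma with voom weights as well. Ctsd, the most abundant member, was at 0.02, 0.03 and 0.01 in WT, Per1-/- and the libraries labelled Per2-/-, with 95% confidence intervals within -0.40 to 0.43.

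Ctsk, which degrades collagen and is the main protease of osteoclasts, rose in WT from 23.6, 29.3 and 23.6 FPKM on day 2 to 52.5, 61.1 and 37.1 FPKM on day 4. In the libraries labelled Per2-/- it rose from 18.9, 24.9 and 22.0 FPKM to 60.1, 40.8 and 45.9 FPKM. Day 2 and day 4 libraries did not overlap in either, and the share of all tested genes without such overlap was not counted. The log2 changes were 0.95 ± 0.26 (SE, adjusted p = 0.0393, limma) and 1.14 ± 0.26 (adjusted p = 0.0142). In Per1-/- the change was 0.48 ± 0.26 (adjusted p = 0.318), and the libraries overlapped, at 36.5, 22.8 and 27.1 FPKM on day 2 and 46.3, 35.3 and 37.5 FPKM on day 4. The WT call was lost without any 1 of 5 of its 6 libraries, with values from 0.80 without WT day 4 replicate 2, over 0.90 without WT day 2 replicate 1, 0.90 without WT day 2 replicate 3 and 0.91 without WT day 4 replicate 1, to 1.06 without WT day 2 replicate 2. The other call was lost without Per2-/- day 2 replicate 1 (1.04, adjusted p = 0.0576) or Per2-/- day 4 replicate 1 (0.99, adjusted p = 0.0682).

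Osteoclast markers moved over the same days as Ctsk. Of 8 listed markers 4 passed the filter, and Acp5, a phosphatase of osteoclasts, and Atp6v0d2, a proton pump subunit, were called higher in WT (2.20 and 3.35) and in the libraries labelled Per2-/- (2.43 and 3.48). Mmp9 and Itgb3 were also called higher in the libraries labelled Per2-/- (4.17 and 0.64), and Atp6v0d2 and Itgb3 in Per1-/- (2.52 and 0.95). The summed level of the 8 markers was 4.44 to 8.20 FPKM on day 2 and 8.84 to 61.1 FPKM on day 4 in WT, 3.73 to 4.51 and 17.5 to 53.1 FPKM in the libraries labelled Per2-/-, and 6.23 to 6.95 and 10.9 to 25.5 FPKM in Per1-/-. Calcr, the calcitonin receptor that defines osteoclasts, stayed at or under 0.0787 FPKM in all 27 libraries, and Dcstamp and Ocstamp, which cell fusion needs, at or under 0.808 and 0.958 FPKM. The part of osteoclast-like transcripts in the Ctsk change was not tested.

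Cst3 rose in the libraries labelled Per2-/- from 198, 145 and 202 FPKM on day 2 to 379, 216 and 379 FPKM on day 4, without overlap (0.81 ± 0.19 SE, adjusted p = 0.0149, limma). This call was lost without Per2-/- day 2 replicate 2 (0.66), Per2-/- day 4 replicate 1 (0.68) or Per2-/- day 4 replicate 3 (0.68). In WT Cst3 went from 148, 173 and 144 FPKM to 254, 279 and 189 FPKM (0.62 ± 0.19 SE, adjusted p = 0.0597), and it was called without WT day 4 replicate 3 (0.78, adjusted p = 0.0341). In Per1-/- the change was 0.51 ± 0.19 (adjusted p = 0.129). Ctss was at 1.13 ± 0.47 in WT, 0.90 ± 0.47 in Per1-/- and 1.22 ± 0.47 in the libraries labelled Per2-/-, not called in any (adjusted p = 0.178, 0.290 and 0.116). The 3 day 4 libraries lay above the 3 day 2 libraries in each genotype, but the share of all tested genes that separate so was not counted.

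**Figure D2:**
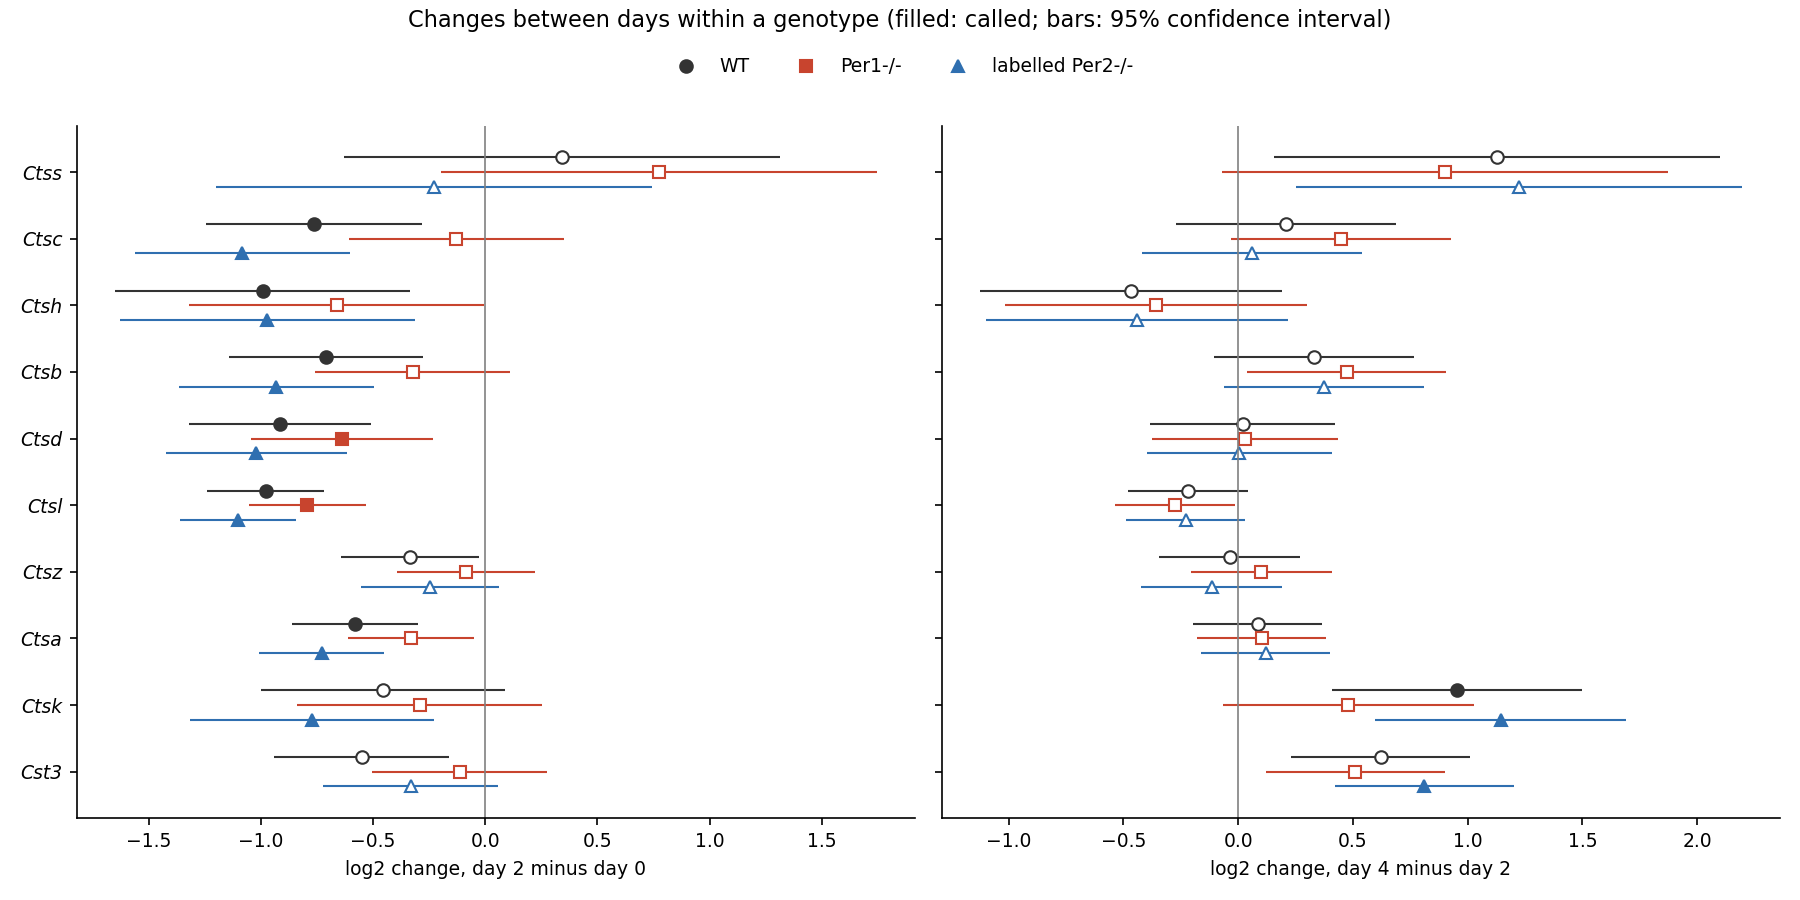
Log2 change of each member (horizontal axes) from day 0 to day 2 (left) and from day 2 to day 4 (right) in WT, Per1-/- and the libraries labelled Per2-/-, with 95% confidence intervals and filled symbols for called changes. Nearly all symbols of the left panel except those of Ctss lie below 0, and in the right panel Ctss, Ctsk and Cst3 lie above 0 in all 3 genotypes.

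The central comparison of the study was Per1-/- against the other genotypes on each day. On day 2 and day 4 the macrophage-linked Ctsc and Ctss and the broadly expressed Ctsb were higher in each Per1-/- library than in all 6 others, but only Ctsc against the libraries labelled Per2-/- was called. On day 2 these were 4 of the 10 members (Ctss, Ctsc, Ctsb and Ctsa), beside 3.07% of all tested genes. On day 4 they were again 4 (Ctss, Ctsc, Ctsb and Ctsz), beside 4.92%. On day 0 they were 0, beside 0.643%. These comparisons share the Per1-/- libraries.

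Ctsc on day 4 was at 17.0, 15.0 and 17.0 FPKM in Per1-/-, at 8.21, 7.16 and 9.20 FPKM in WT, and at 4.38, 5.65 and 6.17 FPKM in the libraries labelled Per2-/-. The 3 genotypes did not overlap, and the share of all tested genes with 3 such separate ranges was not counted, on this day or on day 2. Against the libraries labelled Per2-/- it was 3.00-fold higher (log2 1.59 ± 0.23 SE, 95% confidence interval 1.11 to 2.07, adjusted p = 0.00224, limma), the 1 member called beside 0.556% of all tested genes. This call held in each fit that left out 1 of the 6 libraries and with the macrophage marker level as a covariate (1.13 ± 0.20, adjusted p = 0.0209). Against WT Ctsc was at 0.99 ± 0.23, a 1.98-fold difference that was not called (adjusted p = 0.334), where 0 members and 0.0268% of all tested genes were called.

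On day 2 Ctsc was at 9.90, 10.7 and 15.9 FPKM in Per1-/-, at 7.72, 6.91 and 6.55 FPKM in WT and at 5.90, 4.56 and 5.0 FPKM in the libraries labelled Per2-/-, again without overlap. The difference from the libraries labelled Per2-/- was 1.20 ± 0.23 (SE, adjusted p = 0.0481, limma), the 1 member called beside 0.0737% of all tested genes. This call lay at the threshold. It was lost without any 1 of the 6 libraries: 0.99 without Per1-/- day 2 replicate 3, 1.28 without replicate 2, 1.33 without replicate 1, and 1.30, 1.12 and 1.18 without Per2-/- day 2 replicates 1, 2 and 3. It was also lost with the macrophage marker level as a covariate (0.72 ± 0.20, adjusted p = 0.343). Against WT Ctsc was at 0.75 ± 0.23 (adjusted p = 0.999), with 0 members and 0.0067% of all tested genes called.

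Markers of granulocytes and mast cells, the cells whose serine proteases cathepsin C activates, lay mostly under the filter on low values. Of 9 listed markers 1, Prtn3, passed the filter, and it was not called between genotypes. Elane, Mpo and Ctsg were at 0 in most libraries, with highest levels of 0.0453, 0.0509 and 0.126 FPKM.

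Ctss on day 4 was at 110, 68.8 and 99.6 FPKM in Per1-/-, at 61.1, 44.8 and 56.6 FPKM in WT, and at 49.7, 32.5 and 58.2 FPKM in the libraries labelled Per2-/-. On day 2 it was at 41.9, 41.6 and 65.9 FPKM in Per1-/- and at most 29.8 FPKM in the 6 others. The differences from WT were 0.98 ± 0.47 (SE, adjusted p = 0.999, limma) on day 2 and 0.76 ± 0.47 (adjusted p = 0.917) on day 4. Those from the libraries labelled Per2-/- were 1.32 ± 0.47 (adjusted p = 0.381) and 1.00 ± 0.47 (adjusted p = 0.359). None was called, and the intervals were wide, from 0.03 to 1.97 for the last. With the macrophage marker level as a covariate the 4 differences were 0.11, -0.08, -0.02 and -0.27 in the same order, and none was called.

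Ctsb was at 310, 217 and 263 FPKM in Per1-/- on day 4, against 189, 159 and 187 FPKM in WT and 177, 134 and 175 FPKM in the libraries labelled Per2-/-. Its differences were 0.55 ± 0.21 (SE, adjusted p = 0.651, limma) and 0.70 ± 0.21 (adjusted p = 0.133), and 0.23 and 0.21 with the marker level as a covariate. Ctsz on day 4 was at 0.41 and 0.49 against WT and the libraries labelled Per2-/-, and at 0.23 and 0.21 with the covariate. Over the same libraries the 20 macrophage markers had a median difference of 0.90 from WT and 1.44 from the libraries labelled Per2-/- on day 4, all 20 above 0 in both, with 0 called. Their summed level on day 4 was 1353 to 2408 FPKM in Per1-/-, 685 to 1198 FPKM in WT and 521 to 882 FPKM in the libraries labelled Per2-/-.

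Cst3 and Ctsk did not share this direction on day 4. Cst3 was at 227, 229 and 218 FPKM in Per1-/- against 379, 216 and 379 FPKM in the libraries labelled Per2-/-, a difference of -0.48 ± 0.19 (SE, adjusted p = 0.245, limma). It was called lower without Per2-/- day 4 replicate 2 (-0.75, adjusted p = 0.0337), the library at 216 FPKM. Ctsk was at -0.32 ± 0.26 against WT and -0.29 ± 0.26 against the libraries labelled Per2-/-.

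On day 0, before doxycycline, 0 members were called between any pair of genotypes, by limma or with voom weights. The calls over all tested genes were 0.0134% for Per1-/- against WT, 0.0201% for Per1-/- against the libraries labelled Per2-/- and 0.0067% for the latter against WT. Cst3 was the 1 member with an unadjusted p under 0.05 in the first 2 of these, at -0.40 ± 0.19 (SE, adjusted p = 1.00 and 0.821, limma). The libraries labelled Per2-/- did not differ from WT by a call for any member on day 2 (0.0268% of all tested genes) or day 4 (0.0067%). There Ctsc was at -0.45 ± 0.23 on day 2 and -0.60 ± 0.23 on day 4, and in both the libraries did not overlap. The share of all tested genes without overlap in this comparison was not counted.

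Whether the change between days itself differed between genotypes was tested by interaction terms. In limma 0 members and 0.0% of all tested genes were called for the day 0 to day 2 or day 2 to day 4 change in Per1-/- against either other genotype, and voom weights also called 0 members. At an unadjusted p under 0.05 there were 306, 670, 182 and 265 genes in these 4 tests, with 2 members, Ctsc and Ctsa, in the second. The largest member value was Ctss from day 0 to day 2, 1.00 ± 0.66 (SE, adjusted p = 0.987) against the libraries labelled Per2-/-, and the same term was 0.95 ± 0.33 for Ctsc (adjusted p = 0.987). The smaller falls of cathepsins in Per1-/- from day 0 to day 2 were thus not shown to differ from those in the other genotypes.

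**Figure D3:**
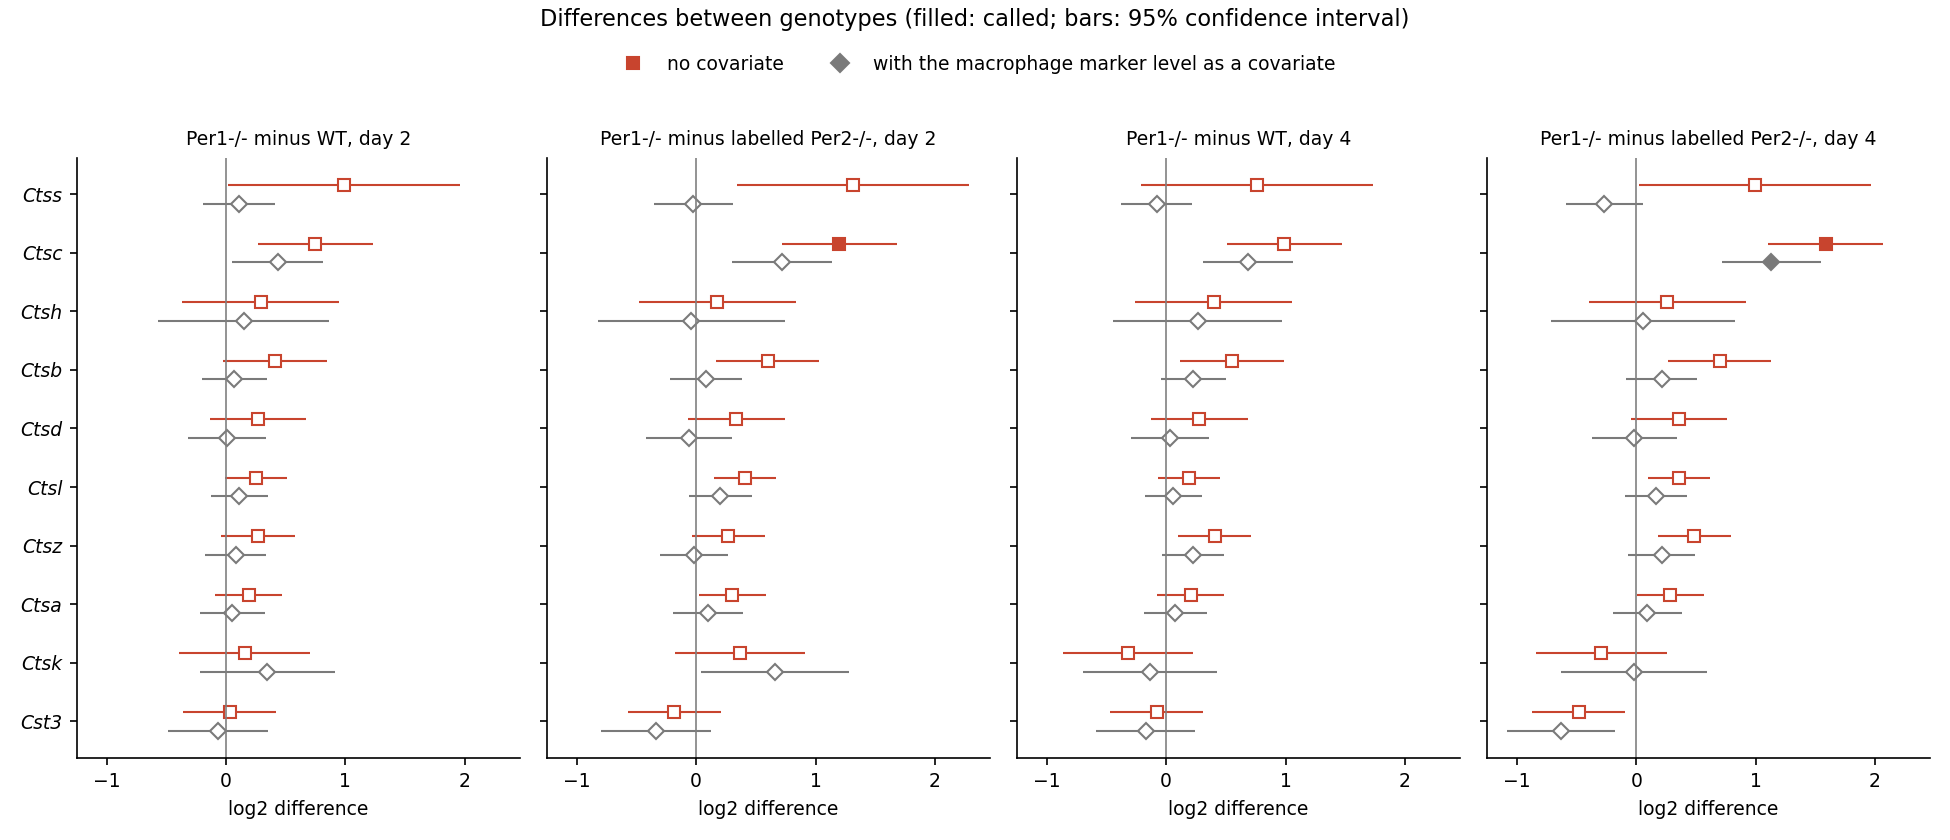
Log2 difference of each member between Per1-/- and WT or the libraries labelled Per2-/- on days 2 and 4 (horizontal axes), without a covariate (squares) and with the macrophage marker level of each library as a covariate (diamonds), with 95% confidence intervals and filled symbols for called differences. Ctss lies between 0.76 and 1.32 without the covariate and between -0.27 and 0.11 with it, while Ctsc stays called on day 4 against the libraries labelled Per2-/-.

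The macrophage marker level also varied between replicates of a group, which allowed the members to be compared with it apart from genotype and day. It spanned 2.02 to 4.42 on the log2 scale in the 3 Per1-/- day 0 libraries and 1.37 to 3.45 in the libraries labelled Per2-/- on day 0. None of the members is among the 20 markers. The slope of each member on this level was fitted with the 9 group means removed, and a slope was called at an adjusted p of at most 0.05. Of the 10 members 5 were called with a positive slope, beside 2.68% of all tested genes, and 0 with a negative one, beside 1.23%.

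Ctss had the steepest slope, 0.91 ± 0.06 (SE, 95% confidence interval 0.79 to 1.04, adjusted p = 1.00e-09, limma), so that a doubling of the marker level went with 1.88-fold more Ctss. This was near the median slope of the 20 markers themselves, 1.02, which they have by construction. The other called slopes were 0.35 ± 0.05 for Ctsb (adjusted p = 0.000217), 0.33 ± 0.08 for Ctsc (adjusted p = 0.0126), 0.27 ± 0.06 for Ctsd (adjusted p = 0.0179) and 0.20 ± 0.05 for Ctsz (adjusted p = 0.0312). The interval of Ctss did not overlap that of any other member, the nearest being Ctsc with 0.17 to 0.49. Ctsl (0.14 ± 0.05, adjusted p = 0.110) and Ctsa (0.14 ± 0.05, adjusted p = 0.173) were not called. Ctsh, grouped as macrophage-linked, was at 0.15 ± 0.14 (adjusted p = 0.676), below the broadly expressed Ctsb and Ctsd. The estimates were therefore not in the order of the role groups. The SE of Ctsh was wide, and differences between its slope and those of Ctsb and Ctsd were not tested.

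Cst3 was at 0.10 ± 0.08 (SE, adjusted p = 0.603, limma) and Ctsk at -0.20 ± 0.11 (adjusted p = 0.416), the 1 member with a negative slope. Of the 12 fibroblast markers 2, Col1a2 and Col3a1, were called with a negative slope and 10 of 12 were below 0.

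The slopes of Ctss and Ctsb held in each of the 27 fits that left out 1 library. That of Ctsc was lost without Per1-/- day 0 replicate 1 (0.25, adjusted p = 0.112) or Per1-/- day 0 replicate 3 (0.23, adjusted p = 0.252), and it rose to 0.50 without Per2-/- day 0 replicate 2. That of Ctsd was lost without Per1-/- day 0 replicate 3 (0.20, adjusted p = 0.267) or Per2-/- day 0 replicate 1 (0.25, adjusted p = 0.0610). That of Ctsz was lost without Per1-/- day 0 replicate 1 (0.20) or replicate 3 (0.14), or without Per2-/- day 0 replicate 1 (0.20) or replicate 2 (0.23). Without the 2 libraries farthest from their group mean, Per1-/- day 0 replicate 3 (1.39 above) and Per2-/- day 0 replicate 2 (-1.35), Ctss was at 1.17, Ctsc at 0.51 and Ctsb at 0.41, all called, and Ctsd and Ctsz were not.

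**Figure D4:**
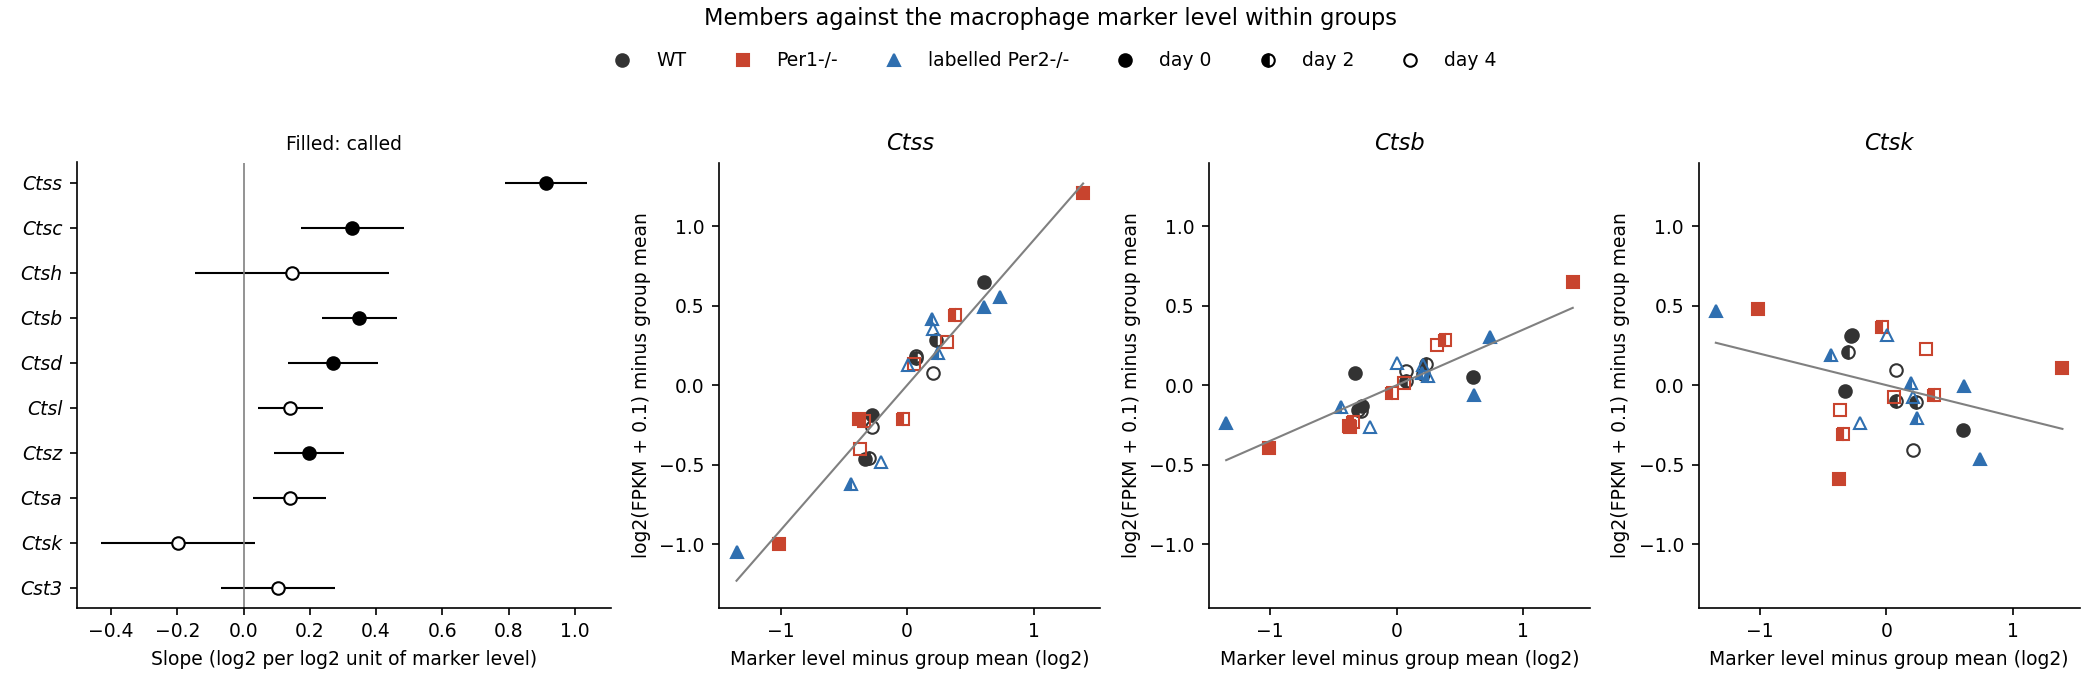
Left, slope of each member on the macrophage marker level within groups, with 95% confidence intervals and filled symbols for called slopes. Right, log2(FPKM + 0.1) of Ctss, Ctsb and Ctsk minus the group mean (vertical axes) against the marker level minus its group mean (horizontal axes) in 27 libraries, with the fitted lines of slope 0.91, 0.35 and -0.20, where the 6 libraries farthest from 0 on the horizontal axis are all from day 0.

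The genes most like each member over the 27 libraries are given by Pearson's r of log2(FPKM + 0.1), as a description, since all points share libraries and scaling. Ctss was most like Cd68, a lysosomal membrane protein of macrophages (r = 0.988), and Trem2, a receptor of macrophages and microglia (r = 0.982). With the group means removed it was most like Cd68 (r = 0.976) and Cd84 (r = 0.975). Cd68 is among the 20 markers. Ctsc was most like Tgfb1 (r = 0.908) and Abcc3 (r = 0.867), and with the group means removed like Stxbp2 (r = 0.865) and Ms4a14 (r = 0.818). Ctsd was most like another member, Ctsa (r = 0.962), and with the group means removed like Lgmn (r = 0.914), the asparaginyl protease legumain that cleaves cathepsin precursors, and Ctsb (r = 0.912).

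Ctsb was also most like Lgmn with the group means removed (r = 0.936), followed by Arhgap4 (r = 0.915). Over the 27 libraries it was most like Adam15 (r = 0.947) and Il10rb (r = 0.940), and Ctsd was also like Mpp1 (r = 0.956). Ctsz was most like other lysosomal genes, Gusb (r = 0.910) and Psap (r = 0.854) over the 27 libraries and Grn (r = 0.926) and Hexa (r = 0.924) with the group means removed. Ctsa was, with the group means removed, most like Acox3 (r = 0.896) and Ctsd (r = 0.894). Ctsl was most like Mical2 (r = 0.979) and Jade1 (r = 0.974), and with the group means removed like Tgfb1 (r = 0.873) and Rbm47 (r = 0.864).

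Ctsk was most like genes of the extracellular matrix once the group means were removed, Cpxm1 (r = 0.901) and Bgn, the proteoglycan biglycan (r = 0.882). Over the 27 libraries its nearest genes were Sgpp1 (r = 0.863) and Gm37305 (r = 0.842), which lies on chromosome 3 too. Cst3 was nearest to Fam124a (r = 0.895) and Creb5 (r = 0.888), and with the group means removed to Enpp2 (r = 0.876) and Shisa4 (r = 0.871). Ctsh was nearest to Ak1 (r = 0.926) and Bag3 (r = 0.918), and with the group means removed to Ecm1 (r = 0.880) and Lacc1 (r = 0.863).

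Other genes of the pathway were followed in fixed lists. Of 14 other cathepsins 2 passed the filter, Ctsf and Ctso, and both rose from day 0 to day 2 in all 3 genotypes, unlike the members. Beside them 20.8% of all tested genes were called higher in WT, 20.8% in Per1-/- and 18.7% in the libraries labelled Per2-/-. Ctsf, a cysteine cathepsin of most tissues, rose by 1.64 in WT, 1.94 in Per1-/- and 1.49 in the libraries labelled Per2-/-, from group means of 9.34 to 10.5 FPKM on day 0 to 29.6 to 32.6 FPKM on day 2. Ctso rose by 1.53, 1.56 and 1.58. Cstb, the intracellular inhibitor cystatin B, fell by 2.02, 1.71 and 1.80, from group means of 226 to 255 FPKM to 62.8 to 74.6 FPKM, and rose by 0.65 from day 2 to day 4 in WT (adjusted p = 0.00312, limma). Of 15 other cystatins 3 passed the filter, and Cst6 and Stfa3 were not called in any comparison between days.

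Of 9 tested lysosomal proteases and partners of cathepsins, the same 4 fell from day 0 to day 2 in each genotype: Tpp1, Prcp, Scpep1 and Dpp7, with changes between -0.61 and -1.14, and 0 rose. Of all tested genes 19.7% fell in WT, 18.8% in Per1-/- and 16.8% in the libraries labelled Per2-/-. Over the same interval 20.8% rose in WT, 20.8% in Per1-/- and 18.7% in the libraries labelled Per2-/-. Lgmn was called higher in Per1-/- than in the libraries labelled Per2-/- on day 4 (0.88 ± 0.21 SE, adjusted p = 0.0488, limma) and had a called slope on the macrophage marker level (0.32 ± 0.06), as had Dpp7 (0.20 ± 0.05). Of 8 sorting genes Sort1 (sortilin), Scarb2 and Gnptg rose from day 0 to day 2 in each genotype, Sort1 by 2.37, 2.33 and 2.31. M6pr, the smaller mannose 6-phosphate receptor, fell by 0.89 in WT, 0.76 in Per1-/- and 0.87 in the libraries labelled Per2-/-, and Nagpa fell in WT and the libraries labelled Per2-/- (-0.76 and -0.77). Sort1 then fell from day 2 to day 4 in WT (-0.87) and in the libraries labelled Per2-/- (-1.07). Igf2r, the larger mannose 6-phosphate receptor, was called higher in Per1-/- than in the libraries labelled Per2-/- on day 4 (0.66 ± 0.11 SE, adjusted p = 0.0130). Of 3 tested regulators of lysosomal genes, Tfeb rose from day 0 to day 2 in WT (0.74) and in the libraries labelled Per2-/- (0.79), Mitf in WT (0.78) and Per1-/- (0.82), and Tfe3 was not called. All these changes from day 0 to day 2 are relative to the median gene, as above.

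The makeup of the cathepsin transcripts shifted between days. The 9 cathepsins summed to 1030 ± 83.0 FPKM (SD, n = 3) in WT on day 0, 633 ± 55.3 FPKM on day 2 and 718 ± 37.8 FPKM on day 4. In Per1-/- the sums were 1081 ± 354, 800 ± 118 and 942 ± 165 FPKM, and in the libraries labelled Per2-/- 1048 ± 151, 585 ± 16.3 and 665 ± 67.2 FPKM. Ctsd made up 35.4 to 40.7% of the sum in the WT libraries on day 0 and 28.7 to 30.3% on day 4, while Ctss went from 1.26 to 2.93% to 6.62 to 8.13%. In Per1-/- Ctss made up 1.56 to 4.43% on day 0 and 8.97 to 10.3% on day 4, above the 5.54 to 8.30% of the other 6 day 4 libraries. These shares are within a library and do not depend on its scaling.

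Cst3 relative to the summed cathepsins was 0.221 ± 0.024 (SD, n = 3) in WT on day 0, 0.248 ± 0.048 on day 2 and 0.337 ± 0.076 on day 4. In Per1-/- it was 0.165 ± 0.027, 0.200 ± 0.023 and 0.244 ± 0.048, and in the libraries labelled Per2-/- 0.217 ± 0.013, 0.309 ± 0.047 and 0.482 ± 0.099. On day 0 the 3 Per1-/- libraries, at 0.133 to 0.182, lay below the other 6, at 0.202 to 0.248. On day 4 they lay below the 3 libraries labelled Per2-/- and overlapped WT. These differences in the ratio were not tested.

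**Figure D5:**
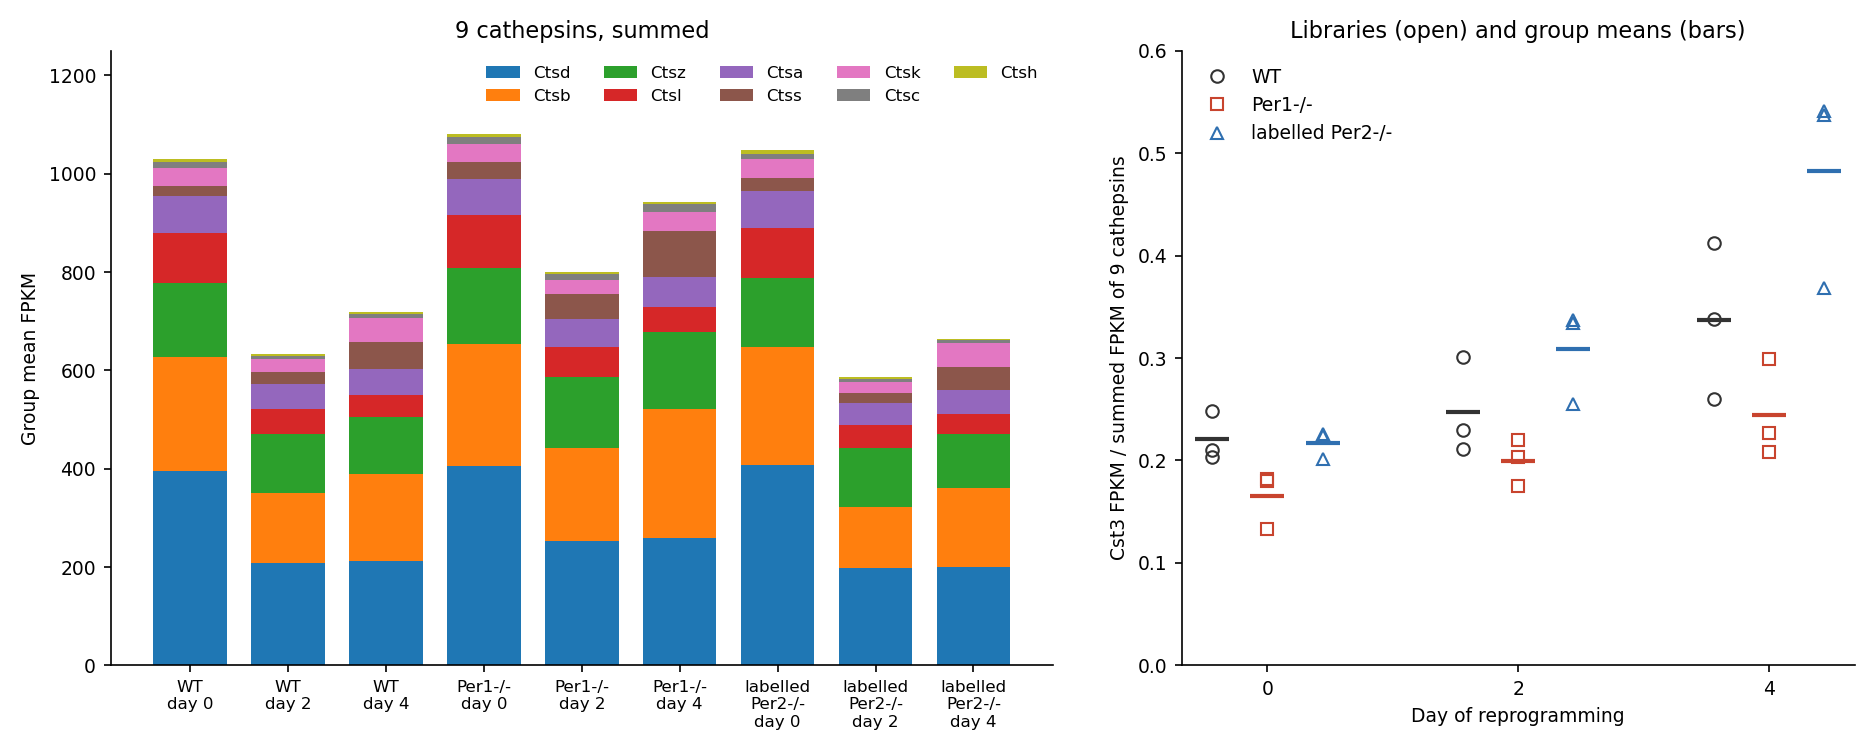
Left, group mean FPKM of the 9 cathepsins stacked by gene for each genotype and day (n = 3 libraries per bar), where Ctsd and Ctsb form the largest shares and the Ctss share is wider on day 4. Right, FPKM of Cst3 divided by the summed FPKM of the 9 cathepsins in each library (open symbols) with group means (bars), where the day 4 means are 0.337 in WT, 0.244 in Per1-/- and 0.482 in the libraries labelled Per2-/-.

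The libraries were nondirectional, so reads of a gene and of one on the opposite strand that overlaps it cannot be told apart. Ctsb overlaps Fdft1 on the opposite strand by 774 bases (Fdft1 at 13.7 to 54.2 FPKM), Ctsa overlaps Pltp by 1515 bases (3.65 to 27.3 FPKM) and Neurl2 by 584 bases (1.77 to 7.46 FPKM), and Ctsz overlaps Nelfcd by 10 bases. The opposite-strand transcripts that overlap Ctsc (Gm26522, at most 0.292 FPKM) and Ctsl (Gm47123) were near or at 0. On their own strand Ctsd overlaps Gm49369 by 6757 bases and Ctsl overlaps Gm49230 by 395 bases, both at 0 FPKM. How reads in bases shared by such genes were counted was not examined. Ctss overlaps the processed pseudogene Hmgb1-ps5 on its own strand by 557 bases (at most 1.22 FPKM), and Ctsh, Ctsk and Cst3 overlap no annotated gene.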

How the data were processed

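RNA of 27 libraries (9 groups of 3) was sequenced after poly-A selection as nondirectional paired ends. As deposited, the values are FPKM per gene, which the authors made with HISAT2 2.0.5 on mm10 (Ensembl annotation) and featureCounts 1.5.0-p3. Their own comparisons are not used here. Each value was a whole number of fragments within 0.01 (the deposited gene length was used, unit bases). The library size this implies was 0.865 to 1.10 times the fragments on genes, which showed that the FPKM include a size factor. Every value column belonged to a labelled sample.

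Genes that averaged 0.5 FPKM or more were tested with limma 3.58.1 in R 4.3.3 on log2(FPKM + 0.1), a scale that understates changes of low genes. The 9 groups shared 1 fit with a mean-variance trend, and p-values were adjusted by Benjamini-Hochberg over all 14932 genes. Calls needed an adjusted p of at most 0.05 and, except for slopes, a log2 change of at least 0.58. The steps were tested on simulated data. There the day 4 test of Per1-/- against Per2-/- found 62.5% of 200 genes given a log2 change of 1, with 9 false calls. It found 85.5% of 200 genes given a change of 2, with 8 false calls. Replicate numbers were not taken to pair samples, since the labels tie them to no shared source. The correlation of deviations between same-numbered libraries of a genotype was over 0.1 in 14 of 27 pairs only (-0.017 to 0.294). Between different-numbered libraries of a genotype it was over 0.1 in 0 of 54 pairs (-0.209 to 0.088). Calls with the replicate number as a block are given in the last section. Alternatives changed the pseudocount, filter, scaling, weights, groups in the fit, replicate block and covariate, and left out each library in turn. The scaling by total fragments was chosen after the data were seen. Named genes were all 10 members, the 2 genes with the highest Pearson's r to each, with and without group means, and members of the fixed lists that were called, except for a result that is not reported here. Members, lists and tests were chosen with earlier results of these data known.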

Additional observations from a re-analysis of the deposited data

How the results depend on the processing

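Numbers of members called depended on scaling most. With FPKM rescaled to a common sum, the day 0 to day 2 calls became 0 in WT (from 6), 1 in Per1-/- (from 2, now Ctss higher) and 4 in the libraries labelled Per2-/- (from 7), the day 2 to day 4 call in WT became 0 (from 1), and the day 2 call between Per1-/- and the libraries labelled Per2-/- became 0 (from 1). With scaling by total fragments, chosen after the data were seen, the day 0 to day 2 calls became 2, 0 and 4 and the day 2 genotype call 0. Calls over all genes then split 4725 higher and 1589 lower in WT, 4656 and 1495 in Per1-/- and 4198 and 1441 in the libraries labelled Per2-/-. With a common sum the splits were 5623 and 1241, 5373 and 1173, and 4682 and 1255, beside 3101 and 2944, 3101 and 2811, and 2792 and 2508 on the deposited scale. The day 2 genotype call was also 0 with a pseudocount of 1, no filter, voom weights, only the 2 groups or the marker covariate. The WT day 2 to day 4 count was 0 with no filter and 2 with voom weights or only the 2 groups. Only the 2 groups gave 1 for Per1-/- day 0 to day 2 and 1 (from 2) for the libraries labelled Per2-/- from day 2 to day 4. The covariate gave 4 for Per1-/- day 0 to day 2, beside 2885 of all tested genes called lower (from 2811). It turned Ctss in WT from 0.34 to -0.59. Without the 2 farthest libraries 3 slopes were called (from 5). The cause was not tested for any of these.

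Leaving out 1 library gave 0 to 2 calls for WT day 2 to day 4, 1 to 3 for Per1-/- day 0 to day 2, 0 to 2 for the libraries labelled Per2-/- from day 2 to day 4, 0 in each fit for the day 2 and 1 to 2 for the day 4 difference between Per1-/- and the libraries labelled Per2-/-, and 2 to 5 slopes. With the replicate number as a block, 3 members were called for WT day 2 to day 4 (Ctss at an adjusted p of 0.0292 and Cst3 were gained), 3 for the libraries labelled Per2-/- from day 2 to day 4 (Ctss gained, adjusted p = 0.0167), 4 for Per1-/- day 0 to day 2 (Ctss, adjusted p = 0.0367, and Ctsh gained), and 3 slopes (Ctsc and Ctsd lost, adjusted p = 0.0688 and 0.1005). Calls over all tested genes rose with the block too. From day 2 to day 4 those for higher genes went from 242 to 460 in WT and from 346 to 624 in the libraries labelled Per2-/-. From day 0 to day 2 in Per1-/- higher calls went from 3101 to 3217 and lower calls from 2811 to 2898. Called slopes went from 400 to 491 positive and from 184 to 449 negative. The labels do not say that the numbers pair the samples. Across days within a genotype, own-number libraries correlated best in 48 of 54 checks, and 0 of 54 different-number pairs had a correlation over 0.1, a hint from the data and not the design. Of the values of single members 3854 kept their side of the threshold with no change of sign beyond the spread between replicates, 70 lost a call, 20 gained one, 15 uncalled values changed sign by more than that spread and 1 turned into a call of the opposite sign.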
